A study of Mus musculus with 18 samples.

Results

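The miR-106b-25 cluster consists of 3 microRNA hairpins, mir-106b, mir-93 and mir-25, which lie in an intron of the mouse gene Mcm7. Its members were chosen by name as the 6 mature microRNAs (miRNAs) of these hairpins, a 5p arm and a 3p arm of each. All 6 were among the 1900 distinct mature names, in 2035 entries, of the deposited miRNA table. All 6 were also among the 481 names that passed the filter on low values, for which 3 or more libraries had to reach a deposited value of 10.

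The values came from small RNA sequencing of NIH 3T3 TetON cells, an immortalised mouse embryonic fibroblast line with a doxycycline-inducible system. The study asked how miRNA levels depend on the rigidity of the substrate, on the LINC complex that ties the nucleus to the cytoskeleton, and on myosin activity. There were 18 libraries in 6 groups of 3. KDEL cells expressed SS-GFP-KDEL, a control protein held in the endoplasmic reticulum, and were cultured on 1 kPa (soft) or 308 kPa (stiff) gels. SUN1L cells expressed SS-HA-SUN1L-KDEL, a dominant-negative construct that disrupts the LINC complex, on the same 2 gels. The other two groups were KDEL cells on 308 kPa given 10 µM blebbistatin, an inhibitor of non-muscle myosin II, or 25 µM Y27632, a small-molecule kinase inhibitor. All groups received 1 µg/ml doxycycline for 48 h. Each construct was carried by a single retrovirally transduced line, and the KDEL line alone was also enriched by fluorescence sorting, so construct and line cannot be told apart. The study's methods call the libraries of a group biological replicates. The p-values rest on the spread between replicates of 1 line for each construct.

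A miRNA is processed from a hairpin, and 1 of its arms is usually loaded into Argonaute while the other is mostly degraded. The seed, bases 2 to 8, largely decides which messenger RNAs it represses. Mcm7, the host of this cluster, encodes a subunit of the replicative DNA helicase, and in other cells the host and its miRNAs are transcribed under control of E2F and MYC factors. miR-106b-5p and miR-93-5p belong to the miR-17 seed family and miR-25-3p to the miR-92 seed family. Known targets of these families include the cell cycle inhibitor p21 (Cdkn1a) and the pro-apoptotic factor Bim (Bcl2l11).

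The mature sequences are shown because the seed decides the family to which each arm is assigned. They were taken from RefSeq (GRCm38.p6, 6 of 6 matched) and are written 5′ to 3′ with the seed in capitals.
mmu-miR-106b-5p: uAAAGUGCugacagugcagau
mmu-miR-106b-3p: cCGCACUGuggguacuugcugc
mmu-miR-93-5p: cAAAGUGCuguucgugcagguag
mmu-miR-93-3p: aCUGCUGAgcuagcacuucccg
mmu-miR-25-5p: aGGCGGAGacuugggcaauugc
mmu-miR-25-3p: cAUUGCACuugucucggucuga
miR-106b-5p and miR-93-5p (the species prefix mmu is left out from here on) carried the same seed. The other 4 arms each had a seed of their own within the cluster. miR-106b-5p and miR-93-5p lie at chr5:138165787-138165807 and chr5:138165574-138165596, and miR-25-3p at chr5:138165332-138165353, all on the minus strand. The GC content was 42.9% in miR-106b-5p, 52.2% in miR-93-5p and 50.0% in miR-25-3p. It was 63.6% in miR-106b-3p and 59.1% in both miR-93-3p and miR-25-5p.

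The hairpins show how the arms are placed, with the 2 mature arms of each in capitals.
mir-106b: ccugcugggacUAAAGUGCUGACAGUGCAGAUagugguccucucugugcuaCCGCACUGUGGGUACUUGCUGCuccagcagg
mir-93: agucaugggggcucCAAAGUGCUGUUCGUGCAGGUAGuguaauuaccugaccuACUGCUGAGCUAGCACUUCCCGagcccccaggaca
mir-25: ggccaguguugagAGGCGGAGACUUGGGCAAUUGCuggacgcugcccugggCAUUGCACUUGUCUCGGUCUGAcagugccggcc
They are 82, 88 and 84 nt long, lie within 498 nt in this order along Mcm7, and are separated by 126 and 118 nt. In the annotation used here (NCBIM37) all 3 lie in intron 13 of a 15-exon Mcm7 transcript, an intron of 748 nt. Mcm7 itself spans chr5:138164583-138172111 in GRCm38.p6.

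A start of Mcm7 is shown because the 3 hairpins share it if they are made from a host transcript that begins there. The 300 bases at chr5:138171834-138172133 (minus strand, RefSeq, GRCm38.p6) run from 250 bases before a start to 50 after it. This start is the upstream of the 2 for which a promoter sequence was at hand. The 5′ end of the Mcm7 span given above, 138172111, lies inside this window, so most of the window is within the annotated gene. Matches to an E2F-type motif are in capitals.
Mcm7 promoter: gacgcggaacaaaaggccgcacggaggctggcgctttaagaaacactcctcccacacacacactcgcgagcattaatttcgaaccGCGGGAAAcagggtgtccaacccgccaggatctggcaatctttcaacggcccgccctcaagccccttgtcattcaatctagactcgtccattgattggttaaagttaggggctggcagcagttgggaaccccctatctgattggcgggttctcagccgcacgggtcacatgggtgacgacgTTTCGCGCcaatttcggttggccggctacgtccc
The letters TTTCCCGC, TTTCGCGC, TTTGGCGC and TTTGCCGC were searched on both strands. They occurred at 2 places in this window, and at least once in 744 of the 32851 promoters of the same length (2.26%). The E-box CACGTG, a motif bound by MYC, was searched likewise and was not found in this window, and 7.15% of promoters held it. CCAAT, on both strands, occurred at 3 places here and in 37.4% of promoters. The same window at the other of these 2 starts, chr5:138171217-138171516, held 0 matches to the E2F-type letters, 0 to the E-box and 1 to CCAAT. Which start is used in these cells was not analysed here. A match is a description of the letters only. The host's own messenger RNA was not analysed here.

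The libraries held 1361360 to 8485822 reads assigned to miRNAs. The deposited values were proportional to whole reads, and 1 read was worth 0.666 to 1.55 in these units. Blebbistatin library 3 stood apart. It had the fewest reads (1361360), a median value over the tested miRNAs of 15.5 against 39.1 to 212 elsewhere, and a mean Spearman correlation with its own group of 0.779. The next shallowest library was SUN1L library 2 on 1 kPa, with 2765837 reads and a median of 39.1. Calls of members are therefore also given without blebbistatin library 3. They are given without both libraries where this changed their count from that with all 18 libraries. Correlations, hairpin shares and arm ratios are not all given in this way. Fibroblast miRNA markers (6 of 6 with reads) summed to 235690 to 513421 RPM, the reads of a miRNA scaled to the miRNA reads of its library. On the same scale, the lists for other cell types summed to at most 102 (epithelial, 6 of 6 with reads), 200 (endothelial, 2 of 2), 9.55 (blood, 3 of 5), 784 (striated muscle, 3 of 3), 29.4 (liver, 1 of 1) and 0.758 (pluripotent, 2 of 4, with miR-290a-5p and miR-302a-3p at the floor everywhere). The neural list, of miR-124-3p and miR-9-5p, ranged from 1244 to 3289. In it miR-124-3p had a mean value of 1.07 at a floor of 1, and miR-9-5p had a mean value of 13566. In such bulk libraries, fewer cells of a type and less of a miRNA per cell cannot be told apart.

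The 3 guide-like arms were abundant and the other arms were not all rare. The mean deposited value over the 18 libraries was 26809 for miR-25-3p (rank 34 of the table), 25064 for miR-93-5p (rank 39) and 4028 for miR-106b-5p (rank 91). It was 2612 for miR-106b-3p (rank 104), 549 for miR-25-5p (rank 172) and 368 for miR-93-3p (rank 197). Levels of different miRNAs also reflect ligation and capture of each sequence, so these ranks order reads, not molecules. Over the 17 libraries other than blebbistatin library 3, the highest value was 154 times the lowest for miR-93-3p, 63.0 times for miR-106b-5p and 46.01 times for miR-93-5p. The corresponding spans were 9.14 for miR-25-5p, 8.06 for miR-25-3p and 3.47 for miR-106b-3p.

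**Figure D1:**
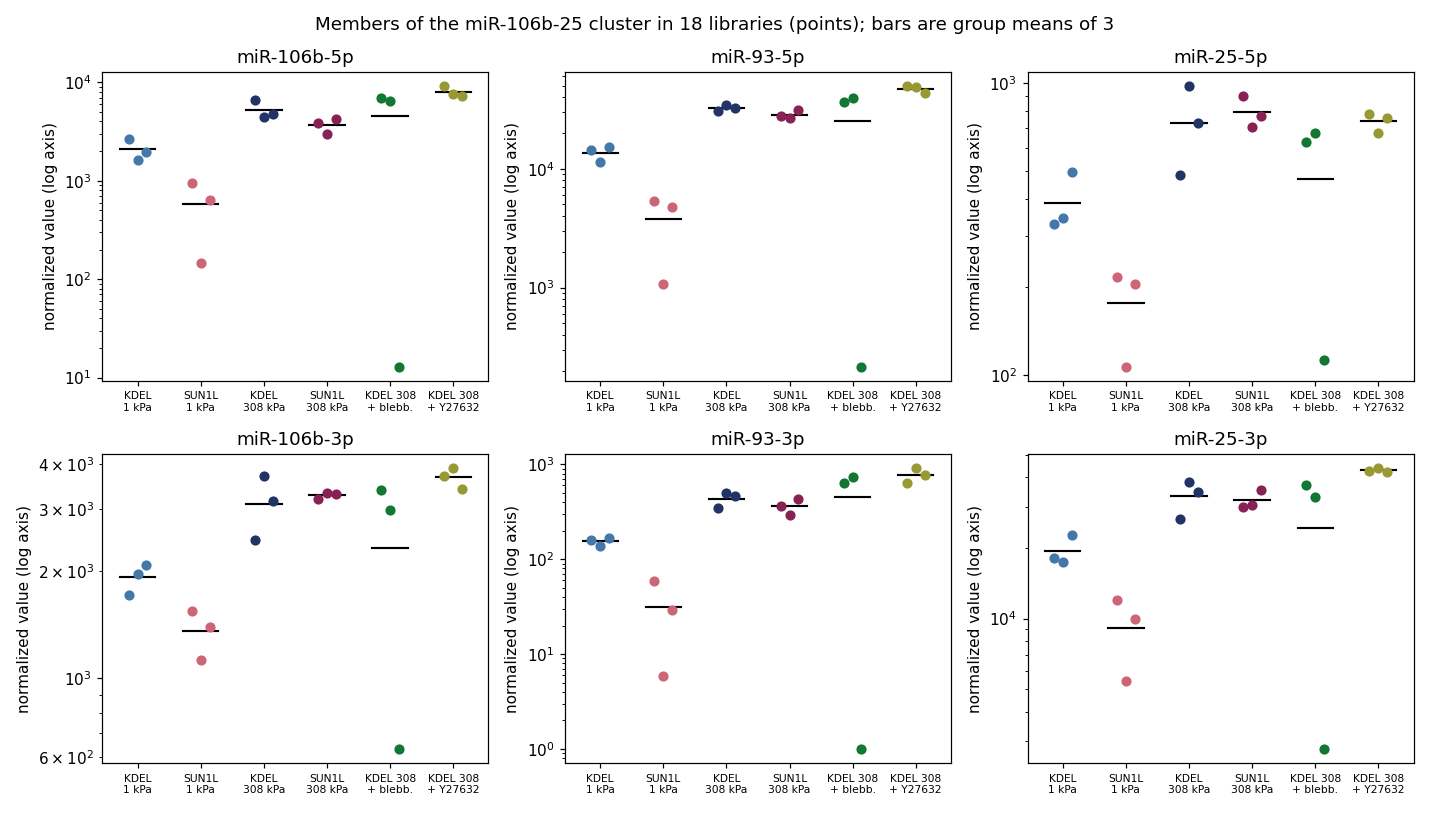
Deposited value (log axis) of each member in the 18 libraries, grouped by construct, gel and inhibitor, with points for libraries and bars for group means. SUN1L cells on 1 kPa hold the lowest group mean for all 6 members, and blebbistatin library 3 lies far below the rest of its group.

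miR-93-5p, the more abundant of the 2 arms with the AAAGUGC seed, was lowest in SUN1L cells on the soft gel. Its values in KDEL cells were 14301, 11310.2 and 15144 on 1 kPa, and 30744, 34299 and 32314 on 308 kPa. For SUN1L they were 5379.9, 1080.0 and 4755 on 1 kPa, and 27538, 26516 and 31113 on 308 kPa. The ranges on 1 kPa did not overlap, while the ranges on 308 kPa did. With Y27632 the values were 49689, 48251 and 43013, all above every KDEL library on 308 kPa. Blebbistatin gave 36341, 39148 and 215, the last in library 3. The group means ± SD (n = 3) were 13585 ± 2015 and 32452 ± 1781 in KDEL cells and 3738 ± 2323 and 28389 ± 2413 in SUN1L cells, on 1 and 308 kPa in each case.

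miR-106b-5p, which shares that seed, had the same lowest and highest groups. KDEL cells had 2645, 1630.5 and 1969 on 1 kPa, and 6658, 4472 and 4716 on 308 kPa. SUN1L cells had 942, 146 and 635 on 1 kPa, and 3844, 3000.4 and 4268 on 308 kPa. No value of a SUN1L group reached the KDEL range on the same gel. Y27632 gave 9185, 7587 and 7295, again above all KDEL libraries on 308 kPa, and blebbistatin gave 6971, 6529.6 and 12.9. The value of 12.9 in blebbistatin library 3 rested on 10 reads.

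miR-25-3p, the most abundant member and the one with the AUUGCAC seed, spanned a narrower range. Its values were 18072, 17398 and 22743 in KDEL cells on 1 kPa, and 26664, 38326 and 34773 on 308 kPa. SUN1L cells had 11975, 5438 and 9922 on 1 kPa and 29948, 30488 and 35398 on 308 kPa. Again the soft-gel groups were apart and the stiff-gel groups overlapped. The values were 42656, 43819 and 42097 with Y27632, and 37191, 32878 and 2778 with blebbistatin.

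The miR-106b-3p arm varied least. It had 1711, 1967 and 2089.6 in KDEL cells on 1 kPa, 2458, 3707 and 3151 on 308 kPa, and 1549, 1125 and 1397 in SUN1L cells on 1 kPa. SUN1L cells on 308 kPa had 3206, 3334 and 3297, inside the KDEL range on that gel. It had 3718, 3906 and 3411 with Y27632, a range that overlapped KDEL on 308 kPa, and 3383, 2983 and 632 with blebbistatin.

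The least abundant arm, miR-93-3p, followed miR-93-5p over a wider span. KDEL cells had 159, 139 and 166 on 1 kPa, and 346, 493 and 466 on 308 kPa. SUN1L cells had 59.1, 5.93 and 29.3 on 1 kPa, and 362, 289.8 and 427 on 308 kPa. The value of 5.93 was made from 5 reads, with an exact 95% Poisson interval of 1.62 to 11.7 reads that covers counting error only. Y27632 gave 634, 911 and 769. Blebbistatin libraries 1 and 2 had 643 and 727, and library 3 held no read of it. For miR-25-5p the KDEL values were 329, 345 and 494 on 1 kPa, and 483, 975 and 729.8 on 308 kPa, with an overlap. SUN1L values of miR-25-5p were 217, 107 and 204 on 1 kPa, all below KDEL, and 898, 708 and 770.4 on 308 kPa. It had 781, 674 and 760.0 with Y27632, and 627, 672 and 112 with blebbistatin.

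By group mean of deposited values, the SUN1L soft-gel group was the lowest for every member. Its range of these values was apart from that of the next group, KDEL on 1 kPa. By mean deposited value the highest group was Y27632 for every member except miR-25-5p, for which it was SUN1L on 308 kPa, with a mean of 792 ± 96.8 against 738 ± 56.5 with Y27632, whose range it overlapped. Blebbistatin, with its library 3, overlapped KDEL on 308 kPa for all 6 members and SUN1L on 308 kPa for all but miR-25-5p. SUN1L and KDEL on 308 kPa overlapped for 5 members and were apart for miR-106b-5p. The 6 members together took 7756 ± 799 RPM (SD, n = 3) in KDEL cells on 1 kPa and 13408 ± 2096 on 308 kPa. The SUN1L sums were 3375 ± 1199 on 1 kPa and 11468 ± 454 on 308 kPa. With Y27632 the sum was 14086 ± 1712, and with blebbistatin it was 17023, 17289 and 2135.

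On the soft gel, all 6 members had lower deposited values in every SUN1L library than in any KDEL library. The group mean of miR-106b-5p was 3.62-fold lower in SUN1L than in KDEL cells. The difference, SUN1L minus KDEL, on the log2(value + 1) scale was -2.20 for miR-106b-5p, -2.16 for miR-93-5p, -2.74 for miR-93-3p, -1.18 for miR-25-5p, -1.16 for miR-25-3p and -0.51 for miR-106b-3p. The 2 groups did not overlap for 6 of 6 members, against 50.3% of all tested miRNAs. In limma on all 18 libraries with Benjamini-Hochberg adjustment over the 481 miRNAs, no member passed an adjusted p of 0.05, with 2.7% of all miRNAs called. None had an unadjusted p under 0.05 in that fit, and edgeR and DESeq2 called none either, with 1 and 3 members under an unadjusted 0.05. The spread in that fit was set largely by blebbistatin library 3, since the SE of the miR-93-5p difference was 1.36 with it and 0.41 without it. Without that library, 5 of the 6 members fell, with 43.9% of all tested miRNAs called. The adjusted p was 0.00147 for miR-106b-5p, 0.00069 for miR-93-5p, 0.000598 for miR-93-3p, 0.00585 for miR-25-5p and 0.00253 for miR-25-3p. miR-106b-3p had an adjusted p of 0.0804.

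These soft-gel differences were read against a shift of the whole table. The median difference over the 481 miRNAs was -0.68, against -1.67 over the 6 members. Of all tested miRNAs, 0.416% had a lower value of this difference than miR-93-3p, 3.95% a lower one than miR-106b-5p and 4.99% a lower one than miR-93-5p. For miR-25-5p, miR-25-3p and miR-106b-3p the shares were 29.3%, 30.6% and 55.3%. When the libraries were rescaled by median of ratios, which set the median difference near 0, and blebbistatin library 3 was left out, 3 members remained lower in SUN1L, with 38.9% of all miRNAs called. These were miR-106b-5p (-1.50, adjusted p by limma 0.00143), miR-93-5p (-1.45, 0.000401) and miR-93-3p (-2.09, 0.000401). On that scale miR-25-5p and miR-25-3p were at -0.48 and -0.45, with adjusted p of 0.107 and 0.0643, and miR-106b-3p was at 0.19. SUN1L library 2 on 1 kPa had the lowest value of its group for every member and also the fewest reads of that group. Without it and blebbistatin library 3, a setting chosen after seeing the data, the difference was -1.40 for miR-106b-5p, -1.41 for miR-93-5p and -1.86 for miR-93-3p, and 5 members were still called by limma, with 32.8% of all miRNAs called.

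**Figure D2:**
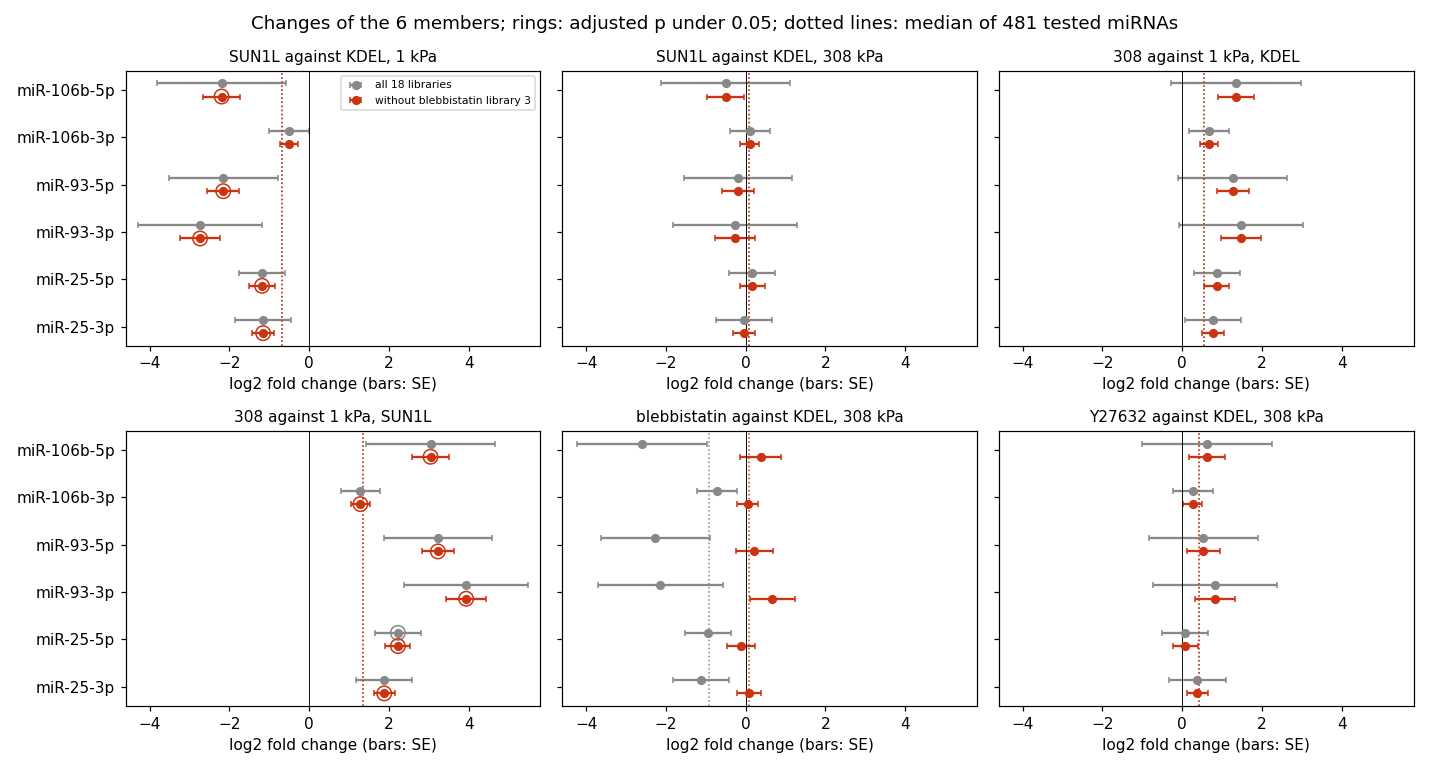
Log2 difference of each member in the 6 contrasts between groups, with bars of 1 SE from limma on all 18 libraries (grey) and without blebbistatin library 3 (red), rings for an adjusted p under 0.05 and dotted lines at the median of all tested miRNAs. The soft-gel SUN1L differences lie below 0 and the stiff against soft differences above 0, and on the deposited scale the rigidity difference is larger in SUN1L than in KDEL cells for all 6 members, while with median-of-ratios scaling this turns for miR-106b-3p, to -0.21.

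In SUN1L cells the cluster was higher on the stiff than on the soft gel. The difference, 308 minus 1 kPa, was 3.94 ± 0.50 (log2, SE without blebbistatin library 3) for miR-93-3p, 3.23 ± 0.41 for miR-93-5p and 3.04 ± 0.46 for miR-106b-5p. It was 2.22 ± 0.31 for miR-25-5p, 1.88 ± 0.27 for miR-25-3p and 1.28 ± 0.23 for miR-106b-3p. The groups did not overlap for 6 of 6 members, against 69.2% of all tested miRNAs. With all 18 libraries, limma called 1 member higher, miR-25-5p (adjusted p = 0.0417, SE 0.58), with 4.16% of all miRNAs called. That call was lost when any 1 of the 15 libraries without blebbistatin was left out, and also with no filter, with median-of-ratios scaling and in edgeR, which called 0 members. DESeq2 called 4 members, with 110 of the 481 miRNAs called. Without blebbistatin library 3 all 6 rose, with 69.9% of all miRNAs called and adjusted p by limma from 6.11e-06 for miR-93-5p to 0.00012 for miR-106b-3p. Without SUN1L library 2 on 1 kPa as well, all 6 were called, with 59.9% of all miRNAs called, and the differences were 1.16 to 3.06.

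The median rigidity difference over all miRNAs in SUN1L cells was 1.34, against 2.63 over the 6 members. miR-93-3p, miR-93-5p and miR-106b-5p lay above 99.2%, 96.9% and 94.6% of the tested miRNAs. miR-25-5p, miR-25-3p and miR-106b-3p lay above 77.5%, 69.0% and 47.8%. After median-of-ratios scaling without blebbistatin library 3, limma called 5 members higher, with 50.7% of all miRNAs called. The differences were 2.63 for miR-93-3p, 1.86 for miR-93-5p, 1.68 for miR-106b-5p, 0.86 for miR-25-5p and 0.52 for miR-25-3p, with adjusted p of 2.36e-05 to 0.0289. On that scale miR-106b-3p changed sign, to -0.080.

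**Figure D3:**
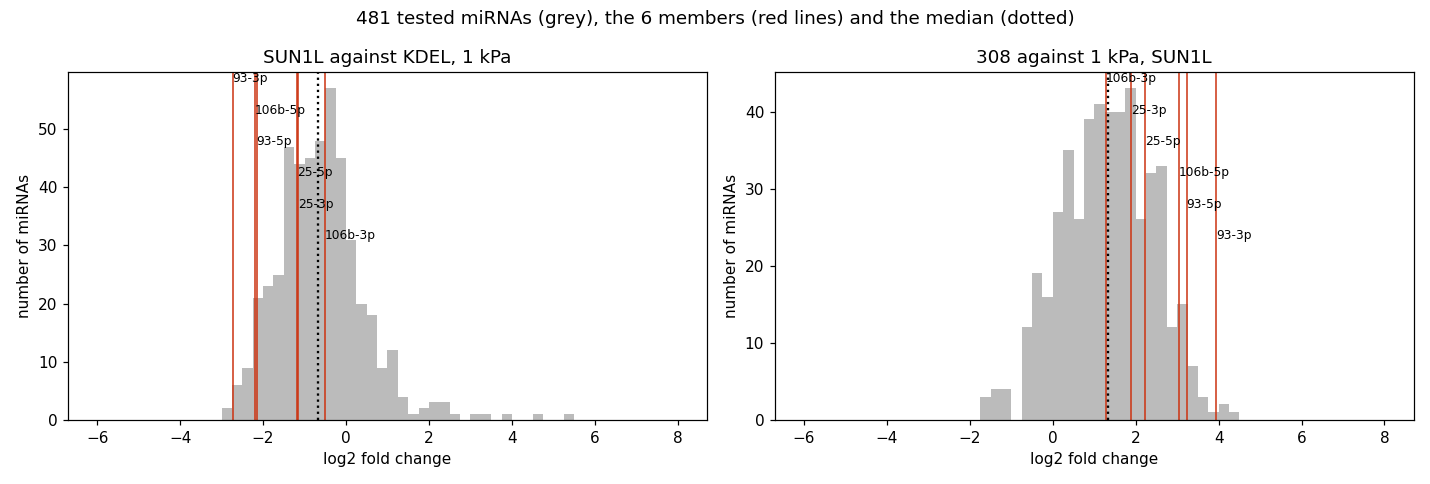
Histograms of the log2 differences of all 481 tested miRNAs (grey), with red lines for the 6 members and a dotted line for the median, in 2 contrasts without blebbistatin library 3. The median of all miRNAs lies at -0.68 for SUN1L against KDEL on 1 kPa and at 1.34 for 308 against 1 kPa in SUN1L cells. All members except miR-106b-3p lie farther from 0 than that median in both.

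In KDEL cells the members were also higher on the stiff gel, by less. The difference, 308 minus 1 kPa, was 1.47 for miR-93-3p, 1.35 for miR-106b-5p, 1.27 for miR-93-5p, 0.87 for miR-25-5p, 0.77 for miR-25-3p and 0.68 for miR-106b-3p. Ranges of deposited values did not overlap for 5 of the 6 members (all but miR-25-5p), against 42.8% of all tested miRNAs, whose median difference was 0.54. In RPM the 2 gels overlapped for miR-25-3p (3498 to 4630 on 1 kPa, 4362 to 6959 on 308 kPa) as well. They also did for miR-106b-3p (331 to 443 and 402 to 673). In limma on all 18 libraries the adjusted p was 0.769 for each of the 6, with 0 members and 0% of all miRNAs called, and none had an unadjusted p under 0.05. The count was also 0 in edgeR and in DESeq2, with 0 members under an unadjusted 0.05 in both. Without blebbistatin library 3 the adjusted p was 0.0555 to 0.0688, so no member was called, though all 6 had an unadjusted p under 0.05, and 7.07% of all miRNAs were called. Without SUN1L library 2 on 1 kPa as well, all 6 were called higher, at adjusted p of 7.09e-05 to 0.00861, with 36.6% of all miRNAs called. That library is in neither of the groups compared and entered only through the shared spread. With the 12 untreated libraries alone, limma called 0 members and 0.208% of all miRNAs. A block by run was then added. The runs were 3 stretches of library numbers cut here, not marked in the labels, each with 1 library of each untreated group. With this block limma called 3, miR-106b-5p (adjusted p = 0.031), miR-93-5p (0.0331) and miR-93-3p (0.0401), with 20.4% of all miRNAs called. After median-of-ratios scaling without blebbistatin library 3 the differences were 0.13 to 0.92, and limma called no member and 2.7% of all miRNAs, with 3 members under an unadjusted 0.05.

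Whether the rigidity difference itself differed between the constructs was tested as an interaction. The rigidity difference in SUN1L minus that in KDEL cells was 2.46 for miR-93-3p, 1.96 for miR-93-5p, 1.69 for miR-106b-5p, 1.35 for miR-25-5p, 1.11 for miR-25-3p and 0.61 for miR-106b-3p. The median over all miRNAs was 0.76. No member passed in limma with all 18 libraries (adjusted p of 0.783 to 0.784, 0 under an unadjusted 0.05, 0.208% of all miRNAs called), and edgeR and DESeq2 also called none, with 0 under an unadjusted 0.05. Without blebbistatin library 3 the adjusted p was 0.0529 to 0.199, with 5 members under an unadjusted 0.05 and 0.208% of all miRNAs called. Leaving out SUN1L library 2 on 1 kPa too gave smaller differences and called 2 members, with 5.41% of all miRNAs called. These were miR-93-5p (1.22 ± 0.24, adjusted p by limma 0.0116) and miR-93-3p (1.59 ± 0.38, 0.0255). The 12 untreated libraries alone gave 0 members and 0% of all miRNAs called by limma, with 5 members under an unadjusted 0.05. Blocked by run as above, limma called 3 members, miR-93-5p and miR-93-3p (adjusted p = 0.0313 each) and miR-106b-5p (0.0472), with 14.1% of all miRNAs called. Scaling lowered these differences. After median-of-ratios scaling without blebbistatin library 3 they were 1.70 for miR-93-3p, 1.15 for miR-93-5p, 0.88 for miR-106b-5p, 0.54 for miR-25-5p and 0.30 for miR-25-3p, and miR-106b-3p turned to -0.21. limma then called no member, with 2 under an unadjusted 0.05, and 0% of all miRNAs.

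On the stiff gel, SUN1L and KDEL cells had similar values of most members. The difference was -0.50 ± 0.46 for miR-106b-5p, and lay between -0.28 and 0.17 for the other 5. The ranges of deposited values were apart for 1 member, miR-106b-5p, against 19.1% of all tested miRNAs. In RPM miR-93-5p was apart as well, with 4585 to 4870 in SUN1L and 5030 to 6228 in KDEL cells. No member was called by limma, with 3.12% of all miRNAs called, nor without blebbistatin library 3, with 3.74% called and an adjusted p of 0.781 to 0.989. edgeR and DESeq2 called none, and neither limma fit nor these 2 tools had a member under an unadjusted 0.05. Leaving out SUN1L library 2 on 1 kPa too, limma still called no member, with 26 of the 481 miRNAs called. In that fit miR-106b-5p had an unadjusted p of 0.0383 and an adjusted p of 0.263. A p that misses the threshold does not show equal levels: the SE of these differences without blebbistatin library 3 was 0.23 for miR-106b-3p and 0.50 for miR-93-3p.

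In deposited values, blebbistatin gave 2 libraries near or above KDEL on 308 kPa and 1, library 3, far below. In RPM library 3 was nearer to the KDEL range for miR-106b-3p (360 against 402 to 673) and miR-25-5p (63.9 against 79.0 to 177). The other members stayed far below, with miR-25-3p at 1582 against 4362 to 6959. With all 3 libraries, the difference from KDEL in deposited values was -2.60 for miR-106b-5p, -2.26 for miR-93-5p, -2.14 for miR-93-3p, -1.13 for miR-25-3p, -0.95 for miR-25-5p and -0.72 for miR-106b-3p. Without library 3 these became 0.38, 0.22, 0.67, 0.089, -0.11 and 0.053. The ranges were apart for 0 of 6 members, against 10.8% of all tested miRNAs. None was called by limma with library 3 (adjusted p of 0.348 to 0.352) or without it (0.992 for each), and 0% of all miRNAs were called in either fit. No member had an unadjusted p under 0.05 in these fits, in edgeR or in DESeq2, and neither of these tools called one.

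The members did not fall alike in blebbistatin library 3. Relative to the mean of libraries 1 and 2, the log2 difference was -8.92 for miR-106b-5p and -7.45 for miR-93-5p, while the median over all tested miRNAs was -2.83. miR-93-3p had 0 reads, and against a floor of 3 reads (a value of 3.87) its mean of 685 in the other libraries was at least 177-fold higher. The other arms were closer to the median, with -3.65 for miR-25-3p, -2.52 for miR-25-5p and -2.33 for miR-106b-3p. Only 0.208% of tested miRNAs had a lower difference than miR-106b-5p, and 2.91% a lower one than miR-93-5p. The part of depth or RNA quality in this was not tested.

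Y27632 went with the highest mean deposited values for 5 of the 6 members, an order that depended on the scale. In RPM, untreated KDEL cells on 308 kPa had a higher mean than Y27632 for miR-25-3p (5945 against 5853), miR-106b-3p (555 against 504) and miR-25-5p (131 against 100.4). Blebbistatin libraries 1 and 2 were above Y27632 in mean RPM for all 6 members, with 7713 against 6428 for miR-93-5p. On the deposited scale, the difference from KDEL on 308 kPa was 0.83 ± 0.50 for miR-93-3p, 0.62 ± 0.46 for miR-106b-5p, 0.53 ± 0.41 for miR-93-5p, 0.38 ± 0.27 for miR-25-3p, 0.26 ± 0.23 for miR-106b-3p and 0.073 ± 0.31 for miR-25-5p, with SE from the fit without blebbistatin library 3. Ranges of deposited values were apart for 4 of 6 members, miR-106b-5p, miR-93-5p, miR-93-3p and miR-25-3p, against 33.3% of all tested miRNAs, whose median difference was 0.43. In RPM these 4 overlapped KDEL on 308 kPa, with miR-93-5p at 5394 to 7138 against 5030 to 6228. limma called none, with 0% of all miRNAs called, in all 18 libraries (adjusted p of 0.943 to 0.969) or without blebbistatin library 3 (0.402 to 0.899). edgeR and DESeq2 called none, and no member had an unadjusted p under 0.05 in any of these 4 fits. Without SUN1L library 2 on 1 kPa as well, limma called miR-93-5p (adjusted p = 0.0482), with 8.94% of all miRNAs called, and miR-93-3p was just outside at 0.0508. With median-of-ratios scaling the differences of miR-25-3p, miR-106b-3p and miR-25-5p turned to -0.066, -0.19 and -0.37, and they turned in edgeR and DESeq2 as well. Those of miR-93-5p, miR-106b-5p and miR-93-3p fell to 0.084, 0.17 and 0.38, and limma called none.

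The 2 arms of a hairpin are made together. Their ratio, like any ratio within a library, does not depend on scaling between libraries. For miR-106b the log2 ratio of 5p over 3p was 0.63, -0.27 and -0.09 in KDEL cells on 1 kPa, and -0.72, -2.95 and -1.14 in SUN1L cells on 1 kPa. On 308 kPa it was 1.44, 0.27 and 0.58 in KDEL and 0.26, -0.15 and 0.37 in SUN1L cells. The SUN1L soft-gel range was below both the KDEL soft-gel range and the SUN1L stiff-gel range. The mean differed by -1.69 ± 0.74 (SE) from KDEL on 1 kPa, and the stiff gel was 1.76 ± 0.70 above the soft gel in SUN1L cells. Each had an exact two-sided permutation p of 0.1, the smallest that 3 against 3 can give, and 0.45 after adjustment over 18 tests. Without SUN1L library 2 on 1 kPa these differences were -1.02 and 1.09. With Y27632 the ratio was 1.30, 0.96 and 1.10, which overlapped KDEL on 308 kPa. Blebbistatin gave 1.04, 1.13 and -5.61. The 2 lowest miR-106b ratios, -5.61 and -2.95, were in the 2 libraries with the fewest reads. The part of depth or base composition in the arm ratios was not tested.

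miR-93 kept a large excess of 5p over 3p, with group means of the log2 ratio from 5.94 with Y27632 to 7.12 in SUN1L cells on 1 kPa. In blebbistatin the ratio was 5.82 and 5.75 in libraries 1 and 2, both below every KDEL library on 308 kPa. In library 3 it was 7.75, which rests on the floor value of 1 with no read of miR-93-3p. With that library included, no pair of groups compared was apart. The SUN1L soft-gel ratio rests on 5 to 57 reads of miR-93-3p. miR-25 kept an excess of 3p over 5p, with group means from -5.86 to -5.34. For miR-25 the SUN1L stiff-gel ratio was above the soft-gel ratio by 0.35 ± 0.15, with ranges apart and an exact permutation p of 0.1 (0.45 adjusted).

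**Figure D4:**
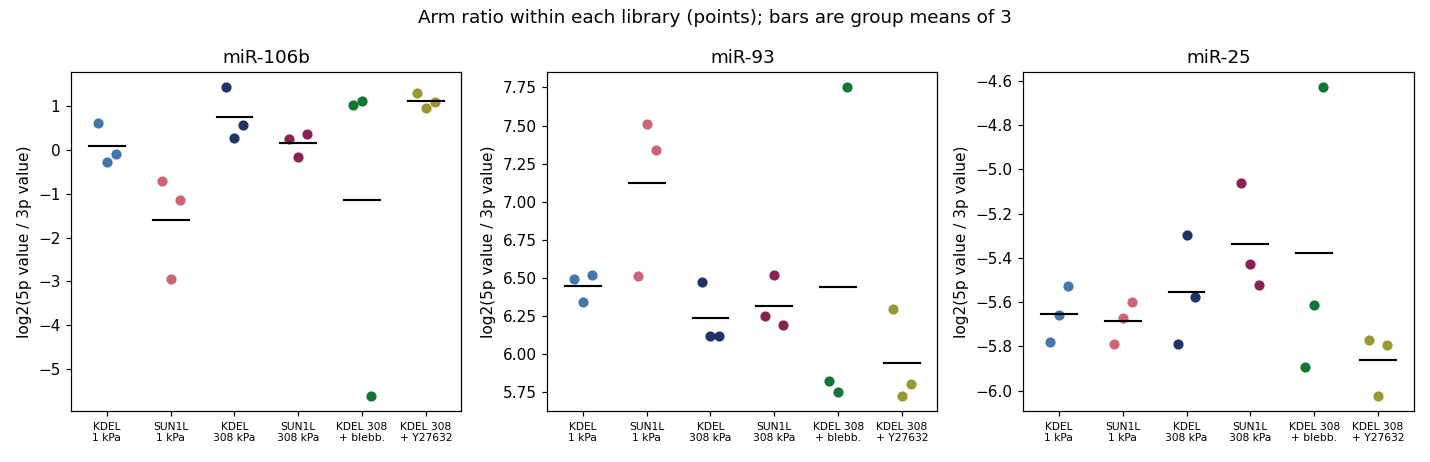
Log2 ratio of the 5p over the 3p arm within each library (points) for the 3 hairpins, by group. For miR-106b the 3 SUN1L libraries on 1 kPa lie at -0.72, -2.95 and -1.14, and blebbistatin library 3 lies at -5.61.

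The share of the 3 hairpins within the cluster's reads also varied. mir-93 gave 27.0%, 13.7% and 28.2% of the cluster's reads in SUN1L cells on 1 kPa, and 38.9%, 34.9% and 35.9% in KDEL cells on 1 kPa. In the 3 SUN1L libraries on 308 kPa it gave 41.7% to 42.4%. In blebbistatin library 3, mir-93 gave 5.74% and mir-25 gave 77.1%. The log2 ratio of miR-93-5p over miR-25-3p was -0.52 ± 0.15 in KDEL and -1.52 ± 0.71 in SUN1L cells on 1 kPa (SD, n = 3), and -0.020 ± 0.20 and -0.17 ± 0.043 on 308 kPa. The ratio of these abundant arms was nearer to 1 on the stiff gel in both lines.

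Because the seeds are shared, the cluster was set beside its relatives from the paralog cluster miR-17-92, a gene on chromosome 14 known as an oncogenic miRNA cluster. The most abundant relatives by seed are shown with the seed in capitals.
miR-17-5p: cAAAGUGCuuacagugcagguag
miR-20a-5p: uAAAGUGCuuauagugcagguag
miR-92a-3p: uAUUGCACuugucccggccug
miR-17-5p differed from miR-93-5p by an edit distance of 3 bases, miR-20a-5p by 4, and miR-92a-3p from miR-25-3p by 4, so reads with errors could be assigned between them. Their mean values were 16429.6, 23183 and 21309. miR-93-5p and miR-106b-5p together made up 44.6% ± 1.56 (SD, n = 3) of the reads of the AAAGUGC family in KDEL cells on 1 kPa and 47.1% ± 2.79 in SUN1L cells on 1 kPa. On 308 kPa the shares were 40.8% ± 2.36 and 42.96% ± 3.64. miR-25-3p made up 58.3% ± 4.06 of the AUUGCAC family in KDEL and 49.6% ± 5.25 in SUN1L cells on 1 kPa. It made up 54.3% ± 4.51 and 52.8% ± 3.42 on 308 kPa, and 29.3% in blebbistatin library 3.

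The relatives by seed differed between the families. Without blebbistatin library 3, both tested relatives with the AAAGUGC seed fell in SUN1L against KDEL cells on 1 kPa, with a median difference of -2.47. Of the 3 tested relatives with the AUUGCAC seed 1 fell, and their median was -0.59, against -0.68 over all miRNAs. On 308 against 1 kPa in SUN1L cells both of the former and all 3 of the latter rose, with medians of 3.69 and 1.67 against 1.34. The paralog cluster also holds arms with other seeds. Of the 12 arms of miR-17-92, 11 were tested and none was called by limma in any contrast with all 18 libraries. Without blebbistatin library 3, 8 of the 11 fell in SUN1L against KDEL cells on 1 kPa, with a median difference of -1.81. All 11 rose on 308 against 1 kPa in SUN1L cells (median 2.58), 3 rose in KDEL cells (median 1.17), and none was called in the other 4 contrasts. These counts stand against the 43.9%, 69.9% and 7.07% of all miRNAs called. In the soft-gel contrast miR-17-5p was at -2.79 (adjusted p by limma 0.000242), miR-20a-5p at -2.14 (0.00064), miR-19b-3p at -1.88 (0.00381) and miR-92a-3p at -0.59 (0.149), which turned to 0.11 with median-of-ratios scaling. Leaving out SUN1L library 2 on 1 kPa too, the differences were -1.96, -1.46, -1.14 and -0.42 in that order. In SUN1L cells the rigidity difference was 4.34 for miR-17-5p, 3.05 for miR-20a-5p, 3.07 for miR-19b-3p and 1.67 for miR-92a-3p. The third paralog cluster, miR-106a-363 on the X chromosome, had 0 of 10 arms above the filter, and its miR-106a-5p had a mean value of 4.26.

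Across the 18 libraries the Spearman correlation between members ranged from 0.686, for miR-106b-5p with miR-25-5p, to 0.977, for miR-93-5p with miR-93-3p. These correlations describe libraries that share scaling and depth. The tested miRNAs most like miR-93-5p over the 18 libraries were miR-17-5p and miR-15b-5p (Spearman correlation 0.988 each), miR-362-5p (0.986), miR-361-5p and miR-30b-3p (0.983 each). For miR-106b-5p they were miR-362-3p (0.994), miR-30b-5p and miR-16-5p (0.988 each), miR-342-3p and miR-9-3p (0.986 each). For miR-25-3p they were miR-185-5p (0.979), miR-484 (0.975), miR-30c-5p (0.973), let-7b-5p (0.971) and let-7d-5p (0.969).

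Over all tested miRNAs with a sequence, base composition moved weakly with some of these differences. A mature sequence was at hand for 427 of the 481 tested miRNAs (88.8%). In blebbistatin library 3 against libraries 1 and 2, the median difference was -3.94 for the 134 miRNAs with under 45% GC and -2.19 for the 113 with 55% GC or more. For SUN1L against KDEL on 1 kPa the same medians were -0.99 and -0.63, and for 308 against 1 kPa in SUN1L cells they were 1.58 and 1.22. Over the 427 miRNAs the Spearman correlation with GC content was 0.217, 0.105 and -0.089 in these 3 comparisons, in that order. It was 0.279 for blebbistatin with its library 3, 0.217 for SUN1L against KDEL on 308 kPa and -0.134 for rigidity in KDEL cells. For the interaction and Y27632 it was -0.026 and 0.086. Over the 6 members alone it was, in the same order, 0.70, 0.35, -0.23, 0.78, 0.61, -0.35, -0.23 and -0.41. Among the members, miR-106b-5p had the lowest GC content and miR-106b-3p, which differed least between groups, the highest. miR-93-3p at 59.1% GC had the largest difference of the 6 for SUN1L against KDEL on 1 kPa and for 308 against 1 kPa in SUN1L cells. The part of base composition in the members' differences was not tested.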

How the data were processed

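Small RNA was sequenced (single-end, NEBNext small RNA libraries) in 18 libraries of 6 groups. Per the study's methods, the authors checked reads with FastQC, trimmed adapters and counted reads per miRBase miRNA in AvadisNGS. The deposited values are a normalised signal per miRNA, scaled between libraries by the authors with a floor of 1. The labels name mm9, whereas the coordinates in the table matched GRCm38. Up to 5000 reads, 100% of values were whole multiples of 1 read (0.666 to 1.55) at a tolerance of 0.01, so reads were recovered, with values at the floor taken as 0 reads. In 8 libraries 1 read was worth less than that floor.

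Of 77 names with several entries (212 in all, 43 with identical values), the entry with the highest mean was kept. The 481 miRNAs that reached 10 in 3 or more libraries were tested on log2(value + 1) with limma 3.58.1 in R 4.3.3 (intensity trend, all 18 libraries in 1 fit), with Benjamini-Hochberg adjustment and a threshold of 0.05. edgeR 4.0.16 and DESeq2 1.42.0 on the recovered reads, other pseudocounts, filters, scalings and sets of libraries were alternatives, among them 2 chosen after seeing the data. On the recovered reads, edgeR called 15, 16, 0, 10, 0, 0 and 0 miRNAs, and DESeq2 37, 19, 0, 110, 0, 30 and 0, in the order SUN1L against KDEL on 1 and 308 kPa, 308 against 1 kPa in KDEL and in SUN1L, interaction, blebbistatin and Y27632. limma called 13, 15, 0, 20, 1, 0 and 0. The labels name no batch. The runs of library numbers were cut here, and the numbers follow on without a break at the cuts. Untreated libraries of the same run of library numbers (37 to 42, 43 to 48, 49 to 53) deviated together from their group means (Pearson correlation over the 481 miRNAs 0.097 to 0.54 in 18 pairs, against -0.46 to 0.12 in 36 pairs of different runs), so a fit blocked by run is given where it changed a call. Arm ratios were compared by exact permutation. Only the limma fit of all 18 libraries was tried on simulated counts, for SUN1L against KDEL on 1 kPa. Those counts held no outlying library and no shift of the whole table, so they do not test the calls given here.

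All 6 members were named. The 5 tested miRNAs with the highest Spearman correlation to each of the 3 most abundant members were named as well, and at most 4 of each list by mean value. The lists were the miR-17-92 and miR-106a-363 paralogs, shared seeds, and miRNA markers of fibroblasts and 7 other cell types. Members and lists were chosen with earlier results of these data known. Reads of near-identical miRNAs may be shared between them. The smallest library held 1361360 reads and the largest 8485822, and intervals cover counting error only.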

Additional observations from a re-analysis of the deposited data

How the results depend on the processing

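Leaving out blebbistatin library 3 alone changed the members called from 0 to 5 for SUN1L against KDEL on 1 kPa. For rigidity in SUN1L cells it changed them from 1 to 6. The library entered these contrasts only through the shared spread. In the other contrasts the count stayed at 0 without it. The cause of other changes was not tested. Square brackets give the number of all 481 tested miRNAs called in the same fit. Members called in SUN1L against KDEL on 1 kPa (0 with all libraries) were 3 with only the groups compared [90] and 5 with the 12 untreated libraries [189]. They were 5 with these blocked by the run of library numbers [231] and 3 with median-of-ratios scaling without blebbistatin library 3 [187]. They were 5 without that library and SUN1L library 2 on 1 kPa [158], and 0 to 5 when 1 library was left out. For 308 against 1 kPa in KDEL cells (0), they were 5 with only the groups compared [120], 3 with the block [98] and 6 without both libraries [176], and 0 to 0 with 1 library left out. In SUN1L cells (1) they were 0 with no filter [18, of 1141], with median-of-ratios scaling [12] and in edgeR [10], and 4 in DESeq2 [110]. They were 6 with only the groups compared [278], with the 12 untreated libraries [322], with the block [341] and without both libraries [288]. They were 5 with scaling without blebbistatin library 3 [244], and 0 to 6 with 1 library left out. The call of miR-25-5p with all libraries was lost when any 1 of the 15 libraries without blebbistatin was left out. The interaction (0) gave 3 with the block [68] and 2 without both libraries [26], and Y27632 (0) gave 1 without both [43]. Without blebbistatin library 3 the table gave 211 calls instead of 13 for SUN1L against KDEL on 1 kPa (179 of 211 lower, but 100 of 187 with median-of-ratios scaling), 34 instead of 0 for KDEL rigidity, and 336 instead of 20 for SUN1L rigidity (322 of 336 higher, but 127 of 244 with scaling). With a pseudocount of 10, the miR-93 arm ratio moved from 0.67 to 0.075 (SUN1L against KDEL, 1 kPa) and from -0.80 to -0.16 (308 against 1 kPa, SUN1L). For miR-106b-3p the sign turned with median-of-ratios scaling, edgeR and DESeq2: SUN1L against KDEL on 1 kPa 0.19, 0.15 and 0.22; interaction -0.21, -0.087 and -0.21; blebbistatin 0.32, 0.13 and 0.38; Y27632 -0.19, -0.20 and -0.16. It was -0.012 with scaling for SUN1L against KDEL on 308 kPa, and -0.080 with scaling and -0.035 in DESeq2 for rigidity in SUN1L. Scaling, edgeR and DESeq2 gave -0.37, -0.42 and -0.39 for miR-25-5p and -0.066, -0.082 and -0.040 for miR-25-3p with Y27632. For blebbistatin, miR-25-5p was 0.089 with scaling and 0.051 in DESeq2, and miR-93-3p 0.045 in edgeR and 0.088 in DESeq2. Blebbistatin differences also turned without library 3: 0.38 for miR-106b-5p, 0.053 for miR-106b-3p, 0.22 for miR-93-5p, 0.67 for miR-93-3p and 0.089 for miR-25-3p, or 0.33, 0.0064, 0.17, 0.62 and 0.042 with scaling as well. With 1 library left out, SUN1L against KDEL on 308 kPa ranged from -0.060 to 0.24 for miR-106b-3p, -0.098 to 0.41 for miR-25-5p and -0.20 to 0.065 for miR-25-3p. Blebbistatin ranged from -4.11 to 0.38, -1.16 to 0.053, -3.53 to 0.22, -3.59 to 0.67 and -1.78 to 0.089 for miR-106b-5p, miR-106b-3p, miR-93-5p, miR-93-3p and miR-25-3p, and Y27632 from -0.19 to 0.31 for miR-25-5p. Arm ratios under all other alternatives moved by less than the spread, which for blebbistatin was widened by library 3 itself. With 1 library left out, the blebbistatin difference in the arm ratio still changed sign for each hairpin. It ranged from -3.05 to 0.32 for miR-106b, -0.45 to 0.55 for miR-93 and -0.20 to 0.43 for miR-25. The labels give no replicate numbers, so only the run of library numbers could serve as a replicate block. It changed no call of a member in the other 3 contrasts between untreated groups, against the same 12 libraries without it. Depth limits miR-93-3p most, at 5 reads in SUN1L library 2 on 1 kPa and 0 in blebbistatin library 3.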
